A study of Mus musculus with 10 samples.

Results

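ChIP-seq peaks of TET2 from cultured mouse embryonic stem (ES) cells included 453 common regions at the ends of genes. Common regions were those that held a peak of every target list (4 lists) and of no control list (4 lists), and the gene-end regions were those that reached across, or lay within 1 kb of, either end of a protein-coding gene. They were 453 of 4521 common regions, or 10.0%, and 453 of the 79350 regions that resulted when overlapping peaks of all 8 lists were merged. Presence or absence of peaks in these lists chose the regions, so every peak value below is a description of them and carries no test.

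The first target group held wild-type ES cells, which carried the floxed genotype Tet2fl/fl without a tag and were precipitated with a rabbit polyclonal antibody raised against the N-terminal part of TET2. The second target group, FLAG-TET2, was also Tet2fl/fl and made TET2 with a 2x-Flag tag from the endogenous locus, and was precipitated with FLAG M2 affinity gel. The control for the antibody was the Tet2 knockout, Tet2-/-, precipitated with the same anti-TET2 antibody. The control for the tag was the parental line, Tet2fl/fl and untagged, precipitated with the FLAG gel. Each group had 2 peak lists, called separately by the authors, and the labels do not say whether the 2 came from separate cultures or clones. All cells were grown on gelatin in serum with LIF, the GSK-3 inhibitor CHIR99021 and the MEK inhibitor PD0325901, and were fixed first with disuccinimidyl glutarate and then with formaldehyde. Neither the input library nor the IgG library came with a peak list, and these 2 were not analysed here. The lists held between 2259 peaks, in knockout replicate 1, and 63578 peaks, in FLAG-TET2 replicate 1, on the assembled chromosomes. Read depth was not given in the sources used here, so a longer list may reflect deeper reads.

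TET2 is a dioxygenase that oxidises methylated cytosine, chiefly at CpG dinucleotides, as a step towards removal of the methyl group. Unlike TET1 it has no CXXC DNA-binding domain of its own, and it is thought to reach chromatin through partner proteins. Many mouse promoters lie in CpG islands, stretches rich in CpG that are mostly free of methylation, while enhancers are poorer in CpG and more variably methylated. Open promoters are also places where ChIP-seq readily gives peaks with control precipitations.

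Stretches from 5 promoters show that CpG content differed among the starts with a common region. Each is the 250 bases before a start listed by RefSeq (GRCm38.p6), written 5′ to 3′ on the strand of the gene, with every CpG in capitals. Pipox (chr11:77893873-77894122, minus strand) and Ldhb (chr6:142507958-142508207, minus strand) were chosen after their values were seen, as strongly ranked regions across a start, with 3 and 14 CpG. Tyk2 (chr9:21131276-21131525, minus strand, 19 CpG), Lef1 (chr3:131110073-131110322, plus strand, 14 CpG) and Acvr1b (chr15:101173822-101174071, plus strand, 42 CpG) are the signalling genes discussed below whose listed start was reached. The Lef1 region covered 151 bases of its stretch and the others covered theirs whole.
Pipox: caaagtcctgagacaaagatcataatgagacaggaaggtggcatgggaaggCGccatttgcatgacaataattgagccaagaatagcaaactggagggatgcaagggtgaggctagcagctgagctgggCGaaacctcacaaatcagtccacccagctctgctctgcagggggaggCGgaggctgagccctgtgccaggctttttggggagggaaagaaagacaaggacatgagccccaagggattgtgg
Ldhb: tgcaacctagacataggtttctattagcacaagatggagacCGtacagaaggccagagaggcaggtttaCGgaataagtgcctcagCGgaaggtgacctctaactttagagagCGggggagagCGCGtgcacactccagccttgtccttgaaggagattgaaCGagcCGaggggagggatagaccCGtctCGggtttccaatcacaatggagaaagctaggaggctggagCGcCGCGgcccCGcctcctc
Tyk2: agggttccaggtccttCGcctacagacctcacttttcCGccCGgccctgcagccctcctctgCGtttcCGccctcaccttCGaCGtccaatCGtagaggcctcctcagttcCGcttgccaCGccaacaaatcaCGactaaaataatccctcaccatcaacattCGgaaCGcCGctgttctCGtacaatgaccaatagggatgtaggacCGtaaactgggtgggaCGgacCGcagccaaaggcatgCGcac
Lef1: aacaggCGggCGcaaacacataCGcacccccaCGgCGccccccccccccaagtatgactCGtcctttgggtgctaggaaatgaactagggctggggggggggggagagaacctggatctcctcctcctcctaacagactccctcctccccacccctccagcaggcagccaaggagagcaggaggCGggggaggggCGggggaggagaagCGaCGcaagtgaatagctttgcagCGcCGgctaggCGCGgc
Acvr1b: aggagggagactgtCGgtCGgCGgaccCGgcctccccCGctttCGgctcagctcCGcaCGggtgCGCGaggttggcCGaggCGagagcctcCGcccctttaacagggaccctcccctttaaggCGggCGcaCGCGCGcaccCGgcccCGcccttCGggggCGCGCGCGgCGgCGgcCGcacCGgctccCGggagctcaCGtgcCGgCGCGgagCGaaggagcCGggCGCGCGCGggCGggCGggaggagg
The Pipox stretch shows a promoter poor in CpG and the Acvr1b stretch one rich in CpG. The regions at the starts of Lrrc34, Lrrn2, Plcxd1 and Hyal1, which led the ranking, lay outside the listed promoter stretches, so none is shown for them.

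Many of the common gene-end regions lay at the far end of a gene. The strand of the gene was known for 361 of the 453 regions. Of these, 254 lay at a gene start (70.4%, 95% exact binomial interval 65.4 to 75.0%), of which 20 also lay at the far end of a gene. The other 107 lay at a far end and no start (29.6%, interval 25.0 to 34.6%). Among the 4645 gene-end regions that had a peak in all 4 target lists and at least 1 control peak, strand was known for 3845, and 3729 of those (97.0%, interval 96.4 to 97.5%) lay at a start and 116 (3.02%, interval 2.50 to 3.61%) at a far end only. Over all 17732 merged gene-end regions the far-end share was 11.2%. These intervals cover counting error only, and regions of 1 list are not replicates. The share depended on 1 control library: without parental replicate 1, 89.5% of the common gene-end regions lay at a start, close to the share over all gene-end regions, which was 88.8%. The nearest start listed for any gene lay a median of 6.58 kb from the far-end regions, a distance partly fixed by how they were defined, and 6 of the 107 had such a start within 1 kb. The 116 control-bearing regions at a far end only were much alike, with a median of 5.68 kb and 8 within 1 kb.

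**Figure D1:**
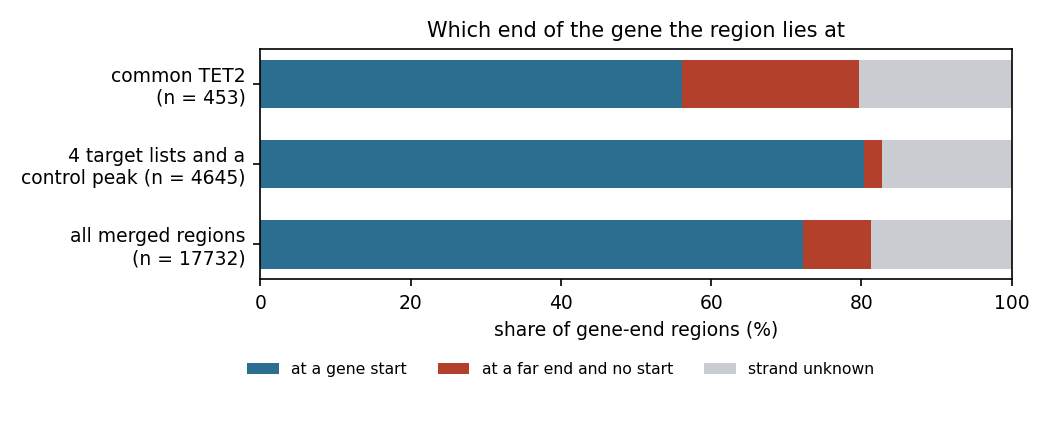
Share of gene-end regions (x axis, in percent) that lay at a gene start, at a far end and no start, or at a gene of unknown strand, for the 453 common TET2 regions, the 4645 regions with 4 target peaks and a control peak, and all 17732 merged regions. The far-end part of the bar is widest for the common TET2 regions, at 107 regions.

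At starts, the summits of common regions often lay away from the start itself. The rule leaves out control-bearing regions, which mostly reached across the start, so this placement may be partly fixed by the rule. Peak summits lay a median of 298 bp from the start in the 254 common regions, against 148 bp in the 3729 with a control peak. The region reached across the start in 122 of the common regions (48.0%), against 3123 of those with a control peak (83.7%). A wider region reaches across a point more easily. Median width was 506.5 bp in the common regions at starts and 990 bp in all control-bearing gene-end regions. The part of width in these 2 shares was not tested. The summit was over 500 bp away in 105 common regions (41.3%), against 620 with a control peak (16.6%). At a limit of 250 bp the difference lay upstream: 71 common regions (28.0%) had the summit over 250 bp upstream, against 311 with a control peak (8.34%). Over 250 bp downstream were 59 common regions (23.2%), against 941 with a control peak (25.2%). Summits of the control-bearing regions clustered just inside the gene, with a median of 81.5 bp downstream of the start, while those of the common regions had a median of -10.8 bp, just upstream of it. At far ends, summits of the 127 common regions lay mostly beyond the gene, with a median of 245.5 bp past the end, 46 of them (36.2%) on the gene's side and 23 (18.1%) reaching across it. The 371 control-bearing regions at far ends were placed much alike, with a median of 343 bp past the end, 35.3% on the gene's side and 24.8% across it.

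**Figure D2:**
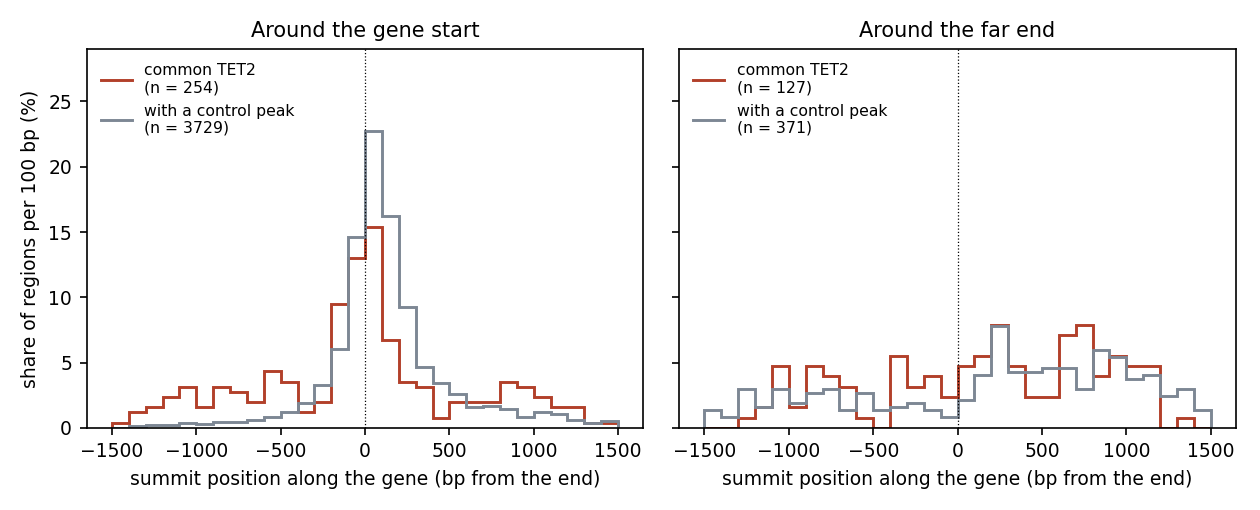
Position of the peak summit relative to the gene start (left) or far end (right), in bp along the direction of the gene, with negative values upstream of that point. Lines give the percentage of regions in each 100 bp bin for common TET2 regions and for regions with 4 target peaks and a control peak, and 39 control-bearing regions at starts, 41 at far ends and 2 common regions at far ends lie beyond the axis. The control-bearing line peaks sharply at the start, while the common line has a lower peak and a long shoulder upstream.

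Few gene-end regions with TET2 peaks were free of control peaks. Of the 5098 gene-end regions with a peak in all 4 target lists, 453 had none in a control list, which is 8.89%. Away from gene ends the figure was 4068 of 6844, or 59.4%. Common regions were 2.55% of all merged gene-end regions and 5.7% of all merged regions. Parental replicate 1 had a peak in 4477 of the 5098 (87.8%), and in 1215 it was the only control peak. Parental replicate 2 had a peak in 2343 (46.0%), knockout replicate 1 in 500 (9.81%) and knockout replicate 2 in 2143 (42.0%). Knockout replicate 2 was the only control in 117 regions, parental replicate 2 in 6 and knockout replicate 1 in 0. The control lists differ in length, and parental replicate 1 was the longest, at 36518 peaks. Without it the common gene-end regions numbered 1683, and the share free of a control peak was 33.1%. They numbered 756 without wild-type replicate 2 and 786 without FLAG-TET2 replicate 2, the shorter list of each target group.

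**Figure D3:**
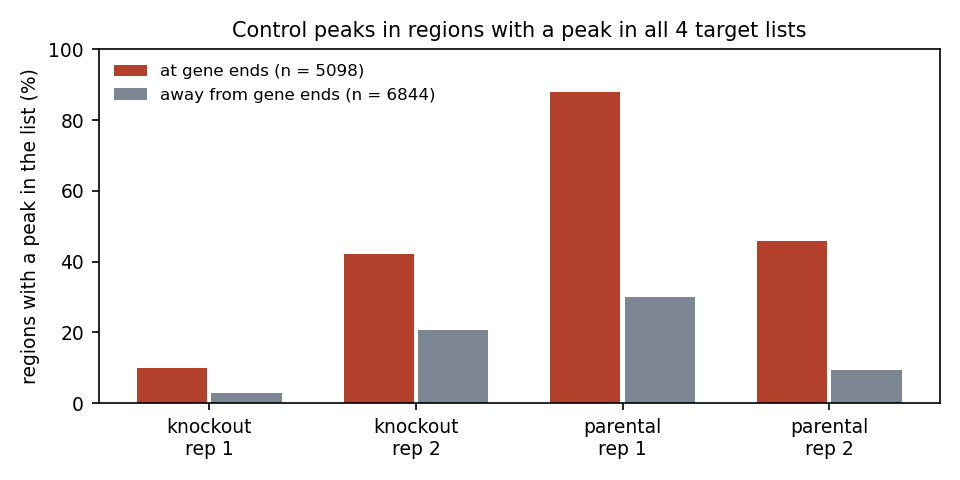
Percentage of regions with a peak in all 4 target lists that also held a peak in each control list (bars, starting at 0), at gene ends (n = 5098) and away from them (n = 6844). Every control list covers a larger share at gene ends, and parental replicate 1 is highest, at 87.8% at gene ends.

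Control-bearing regions at gene ends differed in how many control lists they shared. Exactly 1 control list held a peak in 1338, 2 lists in 2000, 3 lists in 1103 and all 4 in 204. The leading regions present in all 8 lists included those at Cbln4, Celf6, Tmem179 and Dcun1d2. At Celf6, which encodes an RNA-binding protein, the fold was 17.3 and 10.6 in the wild-type lists, against 10.0 and 16.0 in the knockout lists. It was 67.1 and 42.8 in the FLAG-TET2 lists, against 63.2 and 42.6 in the parental lists. Both pairs of lists thus held strong peaks at Celf6, with and without TET2 or the tag.

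Absence of a control peak in a region did not mean that none was near. A control peak lay within 1 kb of 149 of the 453 common gene-end regions (32.9%), against 479 of the 4068 other common regions (11.8%). Within 250 bp the counts were 59 (13%) and 151 (3.71%), and within 100 bp they were 17 (3.75%) and 48 (1.18%). Among the gene-end regions, 109 of the 254 at starts (42.9%) had one within 1 kb, against 13 of the 107 at far ends only (12.1%). Summits of the 4 target lists fell within a median of 67 bp of each other in the common gene-end regions and 52 bp in the other common regions. In the control-bearing gene-end regions the median was 253 bp. The merged regions had a median width of 473 bp in the common gene-end regions, 431 bp in the other common ones and 990 bp in the control-bearing gene-end ones.

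The common gene-end regions ranked lower in each target list than the other common regions did. Ranks are given as percentiles of the authors' −log10 q within a list, where 100 is the strongest peak. The median percentile in wild-type replicate 1 was 77.1 at gene ends, against 84.6 at the other common regions. In wild-type replicate 2 it was 53.4, against 63.1. In FLAG-TET2 replicate 1 it was 73.7, against 86.2, and in FLAG-TET2 replicate 2 it was 49.2, against 66.9. The common gene-end median was thus lower in all 4 lists, by 7.53 to 17.7 points, with a mean difference of -11.9 points (SD 4.39, n = 4 lists). Control-bearing gene-end regions had medians of 72.6 and 51.3 in the wild-type lists and 77.1 and 51.9 in the FLAG-TET2 lists, close to those of the common gene-end regions. Median peak width differed by 1.75 bp (SD 12.6, n = 4 lists), less than the spread between lists, and by 77.2 bp without parental replicate 1. The medians of the authors' fold, a linear ratio at the summit, were 9.01, 6.37, 9.34 and 6.30 at gene ends in wild-type replicates 1 and 2 and FLAG-TET2 replicates 1 and 2.

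Far-end regions ranked above start regions. In wild-type replicate 1 the median percentile was 84.3 at far ends, against 74.5 at starts. In wild-type replicate 2 it was 57.3, against 47.8. In FLAG-TET2 replicate 1 it was 82.7, against 69.6, and in FLAG-TET2 replicate 2 it was 60.2, against 44.3. The far-end median was higher in all 4 lists, with a mean difference of 12.1 points. Control peaks nearby move with this split: as given above, they lay within 1 kb of 42.9% of the start regions, and their part in the difference was not tested.

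**Figure D4:**
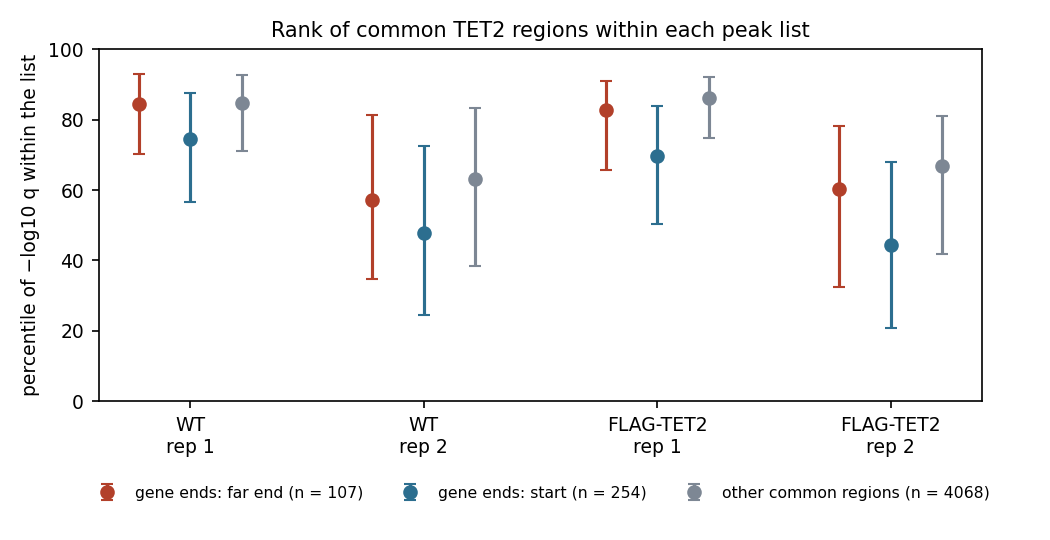
Percentile of −log10 q within each target list (y axis, 0 to 100) for common regions at far ends (n = 107), at starts (n = 254) and for all other common regions (n = 4068). Points are medians and bars run between the quartiles over regions. Starts have the lowest median in each of the 4 lists.

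Across the 453 regions the folds of the 2 wild-type lists had a Spearman rho of 0.66 and those of the 2 FLAG-TET2 lists 0.73, while lists of different reagents gave 0.42 to 0.59. The points of these correlations share libraries and were chosen by these peaks, so rho only describes the spread.

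Folds of single regions ran between 2.83 and 36.4. Of the 453, 20 regions (4.42%) had a fold of at least 10 in all 4 target lists. The leading region lay 767 bp from an end of Zyg11a, a gene of the ZYG11 family of ubiquitin ligase adaptors (chr4:108218855-108219501). Its fold was 27.8 and 16.1 in the wild-type lists and 36.4 and 19.6 in the FLAG-TET2 lists, and the nearest control peak was 735 bp away. Next was a region inside Lrrc34, 607 bp from the start (chr3:30646757-30647211). The Lrrc34 folds were 32.4 and 16.2 in the wild-type lists and 30.7 and 17.6 in the FLAG-TET2 lists. A control peak lay 358 bp from the Lrrc34 region. Folds are the authors' own values for each list, and a difference in fold between lists is not a measured difference in binding.

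The third region lay about 744 to 754 bp from the shared end of 24 genes of the γ-protocadherin cluster (chr18:37840554-37841119), cell adhesion genes that share their last exons. Its fold was 22.7 and 15.7 in the wild-type lists and 30.8 and 16.1 in the FLAG-TET2 lists, and no control peak lay closer than 24575 bp. The fourth was between Mroh6 and Naprt, 3 bp from an end of Mroh6 and 273 bp from one of Naprt, an enzyme of NAD synthesis (chr15:75890200-75890690). Its fold was 25.0 and 18.6 in the wild-type lists and 25.4 and 16.5 in the FLAG-TET2 lists. Both regions thus lay at the ends of several genes, and the strand of these genes was unknown.

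Of the other 6 leading regions, 3 lay upstream of a start and 3 at a far end. The upstream regions were at Lrrn2 (965 bp), Plcxd1 (541 bp) and Hyal1 (930 bp), the last encoding a hyaluronidase. The far-end regions were past the ends of Golga3 (791 bp), which encodes a Golgi protein, and Usp48 (755 bp), a deubiquitinase, and inside the end of AU040320 (517 bp). Over these 6 the lowest fold was 11.5, in wild-type replicate 2 at Golga3. The highest was 27.3, in FLAG-TET2 replicate 1 at Lrrn2. Among these 6 the nearest control peak lay 710 bp away at Hyal1, 1036 bp away at Lrrn2 and farther at the rest. None of the 10 leading regions reached across a gene end.

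The strongest region across a start, which ranked behind them, was that of Pipox, a peroxisomal sarcosine oxidase. Its fold was 17.1 and 11.5 in the wild-type lists and 19.9 and 11 in the FLAG-TET2 lists. The summit was at -159.5 bp relative to the start, within the stretch printed above, and a control peak lay 8 bp from the region. At Ldhb, which encodes a lactate dehydrogenase subunit, the fold was 12.8 and 11.3 in the wild-type lists and 10.6 and 9.45 in the FLAG-TET2 lists. There the nearest control peak was 9904 bp away, and the summit was at -72 bp relative to the start.

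The lowest ranks were all across a gene end. Zfp638 (chr6:83867053-83867471) had folds of 3.08 and 4.51 in the wild-type lists and 5.65 and 4.57 in the FLAG-TET2 lists. Ly6g6e had 3.76 and 4.14 in the wild-type lists and 5.65 and 4.51 in the FLAG-TET2 lists. The region at the divergent starts of Ric8a and Bet1l had 3.42 and 3.80 in the wild-type lists and 4.72 and 3.18 in the FLAG-TET2 lists. Mean percentiles were 13.3 at Zfp638, 13.6 at Ly6g6e and 14.3 at Ric8a.

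**Figure D5:**
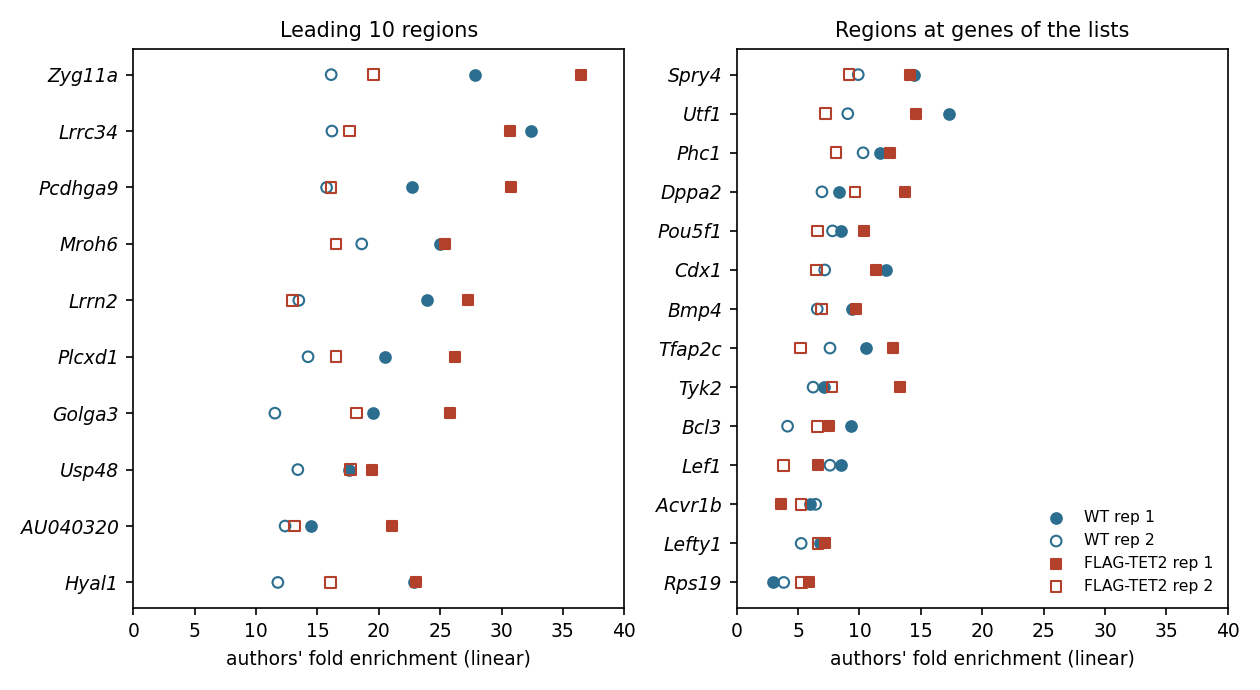
The authors' fold enrichment (linear x axis) in each of the 4 target lists for the 10 leading regions (left) and for the regions at genes of the gene lists (right), with circles for the wild type, squares for FLAG-TET2, filled for replicate 1 and open for replicate 2. The leading regions lie above 11 in every list, while the listed genes spread between 2.99, at Rps19, and 17.3, at Utf1.

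The gene lists covered the pluripotency network, its signals, chromatin, lineage, germline, imprinted, ribosomal, housekeeping and fibroblast genes. Of 356 genes in 17 lists, 14 (3.93%) had a common region at an end, against 2.43% of all 21887 protein-coding genes and 4.01% of the 13254 genes with any merged region at an end. Of the 356, 306 (86.0%) had any merged region at an end, against 60.6% of all protein-coding genes. The 3.93% and the 4.01% are thus not shares of like sets. Among genes with any merged region, the counts were 14 of 306 and 532 of 13254. Single lists ran between 0 and 13.6%, each from 0 to 3 genes. Regions with 4 target peaks and a control peak were found at 146 of the 356 (41.0%), against 24.4% of all protein-coding genes. Counted among genes with any merged region at an end, these were 146 of 306 and 5340 of 13254. The count of 14 was 25 without FLAG-TET2 replicate 2 and 60 without parental replicate 1. Of the 532 genes with a common region at an end, 120 (22.6%) also had a control-bearing one.

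In the core pluripotency list 3 of 22 genes had a common region, and 17 had a control-bearing one. Pou5f1, which encodes OCT4, held its region inside the gene, 742 bp before the far end (chr17:35509282-35510035). Its fold was 8.52 and 7.80 in the wild-type lists and 10.4 and 6.60 in the FLAG-TET2 lists, with the nearest control peak 1001 bp away. Utf1, a chromatin-bound factor of undifferentiated cells, had its region 421 bp past the far end (chr7:139945533-139946243). The Utf1 folds were 17.3 and 9.05 in the wild-type lists and 14.6 and 7.21 in the FLAG-TET2 lists, with a control peak 472 bp away. Dppa2, which with DPPA4 primes early embryonic genes, had one 862 bp from an end, with folds of 8.31 and 6.94 in the wild-type lists and 13.7 and 9.64 in the FLAG-TET2 lists. Where the strand was known, at Pou5f1 and Utf1, the common region lay at the far end. The rule leaves out regions with a control peak, so this does not show that promoters of the list lacked TET2 peaks. None of the 23 genes of the naive state list had a common gene-end region, and 9 had a control-bearing one.

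Among signalling genes, the LIF and JAK list had 2 of 16 and the Nodal, Activin and BMP list 3 of 24. Tyk2, a Janus kinase, had a region across its start, with folds of 7.10 and 6.22 in the wild-type lists and 13.3 and 7.75 in the FLAG-TET2 lists. Bcl3, a nuclear IκB protein, had one 720 bp upstream, with a control peak 804 bp away. Its folds were 9.29 and 4.14 in the wild-type lists and 7.55 and 6.60 in the FLAG-TET2 lists. The Bcl3 percentile in wild-type replicate 2 was 7.63, and the summits of the 4 target lists spread over 670 bp. Acvr1b, a type I activin receptor, had one across its start, with no control peak within 26881 bp. The Acvr1b folds were 5.96 and 6.42 in the wild-type lists and 3.59 and 5.24 in the FLAG-TET2 lists. The Acvr1b percentile in FLAG-TET2 replicate 1 was only 3.98, and the summits of the 4 target lists spread over 514 bp. The ligand gene Bmp4 had one 954 bp upstream of the start, with folds of 9.38 and 6.56 in the wild-type lists and 9.75 and 6.90 in the FLAG-TET2 lists and a control peak 658 bp away. Lefty1, a Nodal antagonist, had one 55 bp from an end, with folds of 6.78 and 5.25 in the wild-type lists and 7.23 and 6.62 in the FLAG-TET2 lists. Of these 5 regions, those at Tyk2 and Acvr1b reached across a known start.

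In the WNT list 2 of 27 genes had one. Lef1, a DNA-binding partner of β-catenin and also in the formative and primed state list (1 of 18), had a region across its start (chr3:131110172-131110485). The Lef1 folds were 8.53 and 7.60 in the wild-type lists and 6.61 and 3.81 in the FLAG-TET2 lists. The Lef1 percentile in FLAG-TET2 replicate 2 was only 0.88, among the weakest peaks of that list. Cdx1, a homeobox gene known as a WNT target, had one 893 bp from an end. In the FGF list (1 of 24), Spry4, a feedback inhibitor of receptor tyrosine kinase signalling, shared with Arhgap26 a region across their ends, with folds of 14.5 and 9.90 in the wild-type lists and 14.1 and 9.15 in the FLAG-TET2 lists. A control peak lay 101 bp from the Spry4 region.

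Each of 3 further lists had 1 gene. The Polycomb list (1 of 28) held Phc1, a PRC1 subunit, with a region 827 bp upstream of its start, folds of 11.7 and 10.3 in the wild-type lists and 12.5 and 8.08 in the FLAG-TET2 lists, and a control peak 339 bp away. The lineage list (1 of 24) held Tfap2c, a trophoblast and germ-line regulator, and the ribosomal protein list (1 of 24) held Rps19, 402 bp past its far end. There was no common gene-end region at any of the 23 DNA methylation and TET genes, the 26 MYC and cell cycle genes or the 22 housekeeping genes. Nor was there one at the 20 hematopoietic, 18 germline, 18 imprinted and 15 fibroblast genes. With a share of 2.43% over all protein-coding genes, lists this short may hold none. Regions with 4 target peaks and a control peak were at 12 of the 23, 13 of the 26 and 14 of the 22 genes. They were at 3 hematopoietic, 1 germline, 2 imprinted and 1 fibroblast genes.

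Some regions lay at the ends of more than 1 gene. Of the 453, 74 (16.3%) did so. In 22 of these the region lay at the starts of 2 genes on opposite strands, as at Mfap1a and Wdr76, where folds were 10.9 and 6.95 in the wild-type lists and 10.3 and 11.1 in the FLAG-TET2 lists. In 10 of them, 2 far ends converged. The strongest of these, at Amt, a glycine cleavage enzyme, and Tcta (chr9:108301726-108302254), had folds of 19.7 and 14.0 in the wild-type lists and 19.5 and 12.1 in the FLAG-TET2 lists. In 16, the far end of a gene was followed by the start of the next on the same strand, as at Asap3 and Tcea3. A further 22 involved a gene of unknown strand, and 3 involved 3 or more genes. Conversely, 19 genes held 2 of the regions, among them Mroh6, Thbs3, Trim12a and Rab6b. No share over all merged gene-end regions is given beside these counts, so they only describe the common regions. At Rab6b, a RAB GTPase gene, the region 1 bp from the start had folds of 8.31 and 8.71 in the wild-type lists and 4.04 and 4.28 in the FLAG-TET2 lists. Its FLAG-TET2 percentiles were low, at 4.37 and 4.27, and a control peak lay 46 bp away. The region at the far end of Rab6b had folds of 12.2 and 7.92 in the wild-type lists and 14.8 and 12 in the FLAG-TET2 lists. Its nearest control peak was 16464 bp away.

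Chromosome 7 held 61 of the 453 regions (13.5%), against 248 of the 4068 other common regions (6.10%). It held 8.22% of all merged gene-end regions and 9.27% of the protein-coding genes.

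Promoter sequence under the regions was poorer in CpG than at starts with a control peak. A RefSeq promoter window, from 250 bases before to 50 after a start, was overlapped by 153 of the 453 common regions (33.8%). The figure was 3538 of the 4645 control-bearing ones (76.2%). These shares include regions at far ends only, 107 of the 453 and 116 of the 4645. The common regions were also narrower, with a median width of 473 bp against 990 bp. The part of placement and width in the 2 shares was not tested. The 355 windows of genes with a common region at their start had a median of 18 CpG and an observed to expected CpG ratio of 0.667. The 5160 windows of genes with a control-bearing region at their start had a median of 24 CpG and a ratio of 0.832. The 181 windows overlapped by common regions had a median of 19 CpG and a ratio of 0.697. The 4875 windows overlapped by control-bearing regions had a median of 26 CpG and a ratio of 0.861. Windows of all protein-coding genes had a median of 13 CpG and a ratio of 0.567. The common regions thus lay between the control-bearing starts and protein-coding genes at large.

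Sequence motifs were counted as exact letters on either strand of 2 sets of windows, the 355 windows of genes with a common region at their start and the 181 windows that a common region overlapped, a set added after seeing the data. AAGGTCA, the core of the motif of the orphan nuclear receptor ESRRB, was in 19 of the 355 windows (5.35%), against 140 of 5160 windows of genes with a control-bearing region at their start (2.71%) and 4.72% of all 32851 windows. In the overlapped windows it was in 14 of 181 (7.73%), against 128 of 4875 overlapped by control-bearing regions (2.63%). The share was thus above that of control-bearing starts in both sets and close to that of all windows in the larger set. The ETS letters CCGGAAGT were in 17 of 355 (4.79%), against 480 of 5160 (9.30%) and 3.89% of all, and in 11 of 181 overlapped windows (6.08%), against 500 of 4875 (10.3%). The TATA box letters TATAAA were in 28 of 355 (7.89%), against 317 of 5160 (6.14%) and 13.6% of all, but in 7 of 181 overlapped windows (3.87%), against 239 of 4875 (4.90%). The order against control-bearing starts thus turned with the set of windows. The octamer ATGCAAAT, bound by OCT4, was in 6 of 355 (1.69%), against 58 of 5160 (1.12%) and 1.74% of all, and in 4 of 181 overlapped windows (2.21%), against 51 of 4875 (1.05%). The Pipox stretch holds this octamer on its reverse strand, with its first base at -195 relative to the start. The letters TTGTNATGC of a joint OCT-SOX site begin there at -191 on the same strand and overlap the octamer. That joint motif was in 1 of 355 (0.28%), against 21 of 5160 (0.41%) and 0.73% of all windows. In overlapped windows it was in 1 of 181 (0.55%), against 17 of 4875 (0.35%). The SOX letters ACAATGG were in 5 of 355 (1.41%), against 101 of 5160 (1.96%) and 3.66% of all. In overlapped windows they were in 5 of 181 (2.76%), against 76 of 4875 (1.56%). The KLF/SP letters GGGNGTGG were in 22.3% of the 355, against 23.4% of the 5160, and in 22.7% of the 181, against 24.8% of the 4875. In all, 16 motifs were counted, and the rest are not reported here. A match is only a description of the letters, and for most motifs given here windows with a match are few.

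The 1 kb limit cut through closely spaced distances. Just inside were a second region at Mroh6 (999 bp), and regions at Snapc3 (994 bp) and Best2 (988 bp). Just outside were regions at Shf (1006 bp), Map3k5 (1011 bp) and Mrps5 (1012 bp). The widest members were those at Zfp428 and Cadm4 (1857 bp), at Izumo4 and Mob3a, and at Vat1, where a control peak lay 2 bp away.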

How the data were processed

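Peak lists of 8 ChIP-seq libraries of mouse ES cells were used, 2 in each of 4 groups. Per the submitters' processing notes, the mm10 build was used together with MACS2, Bowtie2, Trimmomatic, DESeq2 and DiffBind. Versions and roles are not given in the sources used here. In the deposited narrowPeak lists the score is a whole-number form of −log10 q. The deposited fold is a linear ratio at the summit over the authors' control track, and the −log10 p and −log10 q values are also the authors' own. All were used only to describe and rank peaks within a list. Read depth is unknown, and intervals cover counting error only.

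Peaks on 21 chromosomes that shared at least 1 bp were merged. Gene spans came from a RefSeq table of 21887 protein-coding genes (GRCm38.p6, the assembly of mm10). A strand was taken from the RefSeq promoter windows, which matched 17492 of them by gene ID (79.9%). The gene end at which transcription stops is called the far end. A region at a start and a far end was counted at the start. Summits are medians over the 4 target lists. No test was run, since the members were chosen from these peaks. The members, the 17 gene lists and the 16 motifs were chosen with earlier results of these data known.

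Named regions were the 10 members with the highest mean percentile, the 3 lowest, the 3 widest, those at genes of the lists, and those at the limit. They also included the 5 leading regions at several genes, up to 8 genes with several members and 5 regions in all 8 lists, of which some are given without values and some are not reported here. Pipox, Ldhb and Mfap1a were chosen after their values were seen. Alternatives were a −log10 q of at least 5, other distances, 200 bp summit windows, an overlap of 50 bp, other control sets and leaving out each list. Ranking by fold, mean peak values and genes counted at either end were also tried. The merging and counting steps were checked on simulated peaks. Python 3.11.15, pandas 2.3.3 and SciPy 1.17.1 were used.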

Additional observations from a re-analysis of the deposited data

How the results depend on the processing

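The number of common gene-end regions was 685 with a 2 kb limit, 184 where the region had to reach across the end, 732 with 200 bp summit windows and 2954 with knockout controls only. With 1 list left out, which relaxes the rule and so could hardly lower the count, it ran between 453 and 1683. Their share of the common regions was 6.79% at 500 bp, 15.2% at 2 kb, 4.07% across the end, 14.4% with summit windows, 35.3% with knockout and 11.4% with parental controls only, and 10.0 to 25.0% with 1 list left out. The share of gene-end regions free of a control peak was 13.1% at a −log10 q of at least 5, 6.55% at 500 bp, 12.1% at 2 kb, 4.59% across the end, 19.8% with summit windows, 57.9% with knockout and 12% with parental controls only, and 8.89 to 33.1% with 1 list left out. The percentile difference from other common regions kept its direction in all 18 alternatives, at -16.7 for 500 bp, -19.7 across the end and -17.7 to -11.7 with 1 list left out. The width difference was 25.8 bp at a −log10 q of at least 5, 47.4 bp with summit windows, 136.6 bp with knockout controls only, and -1 to 77.2 bp with 1 list left out, so it had no stable direction. The start share was 85.3% across the end, 82.5% with summit windows, 93.4% with knockout and 75.3% with parental controls only, and 70.4 to 89.5% with 1 list left out. The listed genes with a region numbered 7 at 500 bp, 30 at 2 kb and 14 to 60 with 1 list left out, where the count could likewise hardly fall. Parental replicate 1 had a peak in 2911 of the gene-end regions with 4 target peaks at a −log10 q of at least 5 and in 2625 with summit windows. The far-end minus start percentile difference, computed under alternatives added after seeing the data, ran between 6.65 and 18.2. The cause of these shifts was not tested. No paired analysis was possible because no result comes from a test. The unknown read depth limits what absence of a control peak can show.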
